A study of Mus musculus with 66 samples.

Results

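In cultured mouse cortical neurons, CATCH-IT was used to ask where newly made histones entered chromatin after depolarisation. The deposited list of regions that differed between KCl and control held 53020 regions, of which 50306 named no promoter. The regions described here are the 2760 non-promoter regions longer than 380 bp, 5.21% of the list and 5.49% of its non-promoter regions. A stretch of that length cannot come from a single read position in this list, in which lengths grow in steps of 20 bp. The members were chosen by length, which the authors' region calls set, and the list itself was selected on the difference between KCl and control. Directions and differences between the groups are therefore given as descriptions, with no test.

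All cells were primary cortical neurons of the C57bl/6 strain, from embryos at the stage labelled E16.5, and had been kept for 8 days in vitro. The KCl group was depolarised for 5 hr, and the control group had no stimulation over the same 5 hr. Each group had 3 CATCH-IT libraries and 3 input libraries, and the series held 66 samples in all. The labels call the in vitro experiments of the series biological triplicates in a protocol written for crosslinked immunoprecipitations, and say nothing separate for CATCH-IT. The 3 KCl pull-downs were run on lane 1 and the 3 control pull-downs on lane 5, so that lane and treatment cannot be told apart. The tables hold no expression values, so the cell type could not be checked against markers.

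Nucleosomes outside the replication fork are partly taken apart and rebuilt as genes are transcribed and as factors bind DNA. In CATCH-IT, cells take up a methionine analogue, new proteins are tagged through it, and chromatin that holds tagged histones is captured on streptavidin beads. Neurons no longer divide, so that newly made histones enter their chromatin mainly by such replacement. Depolarisation with KCl opens voltage-gated calcium channels and starts the transcription programme linked to neuronal activity. A gained region is one with a higher mean normalised read count in KCl, and a lost region is one with a higher mean in control. In bulk chromatin, a change in the number of cells and a change in the amount per cell cannot be told apart.

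The following 10 stretches of 300 bases are shown because they lie in regions with the smallest deposited p-values or the greatest lengths, and because their sequences differ in a way that the counts below take up. They were read from the plus strand of the mouse genome mm9, 5′ to 3′, around the 200-bp window that the authors' table gives for each region. Capitals mark perfect tandem runs of at least 24 bases with a repeated unit of 1 to 4 bases. The gained stretches come first.
Rasgrf1 intron, gained, chr9:89895261-89895560: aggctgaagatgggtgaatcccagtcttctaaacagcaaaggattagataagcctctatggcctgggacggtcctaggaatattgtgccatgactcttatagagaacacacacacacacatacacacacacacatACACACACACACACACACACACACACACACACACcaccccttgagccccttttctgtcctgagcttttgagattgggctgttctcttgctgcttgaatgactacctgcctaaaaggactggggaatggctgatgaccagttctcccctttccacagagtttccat
Med12l intron, gained, chr3:58886311-58886610: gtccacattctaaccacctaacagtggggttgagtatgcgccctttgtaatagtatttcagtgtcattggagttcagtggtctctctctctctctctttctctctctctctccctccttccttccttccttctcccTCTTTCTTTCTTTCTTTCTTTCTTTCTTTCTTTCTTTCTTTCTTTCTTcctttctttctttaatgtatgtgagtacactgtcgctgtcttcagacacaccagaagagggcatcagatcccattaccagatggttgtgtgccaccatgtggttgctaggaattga
gene desert of chromosome 4, gained, chr4:16945191-16945490: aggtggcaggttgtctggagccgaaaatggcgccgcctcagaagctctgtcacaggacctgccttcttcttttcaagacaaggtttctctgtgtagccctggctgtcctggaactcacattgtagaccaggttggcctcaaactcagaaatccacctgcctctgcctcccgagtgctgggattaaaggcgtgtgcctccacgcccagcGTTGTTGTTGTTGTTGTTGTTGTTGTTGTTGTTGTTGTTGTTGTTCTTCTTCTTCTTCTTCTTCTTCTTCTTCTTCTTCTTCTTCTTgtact
Zmynd8 intron, gained, chr2:165705511-165705810: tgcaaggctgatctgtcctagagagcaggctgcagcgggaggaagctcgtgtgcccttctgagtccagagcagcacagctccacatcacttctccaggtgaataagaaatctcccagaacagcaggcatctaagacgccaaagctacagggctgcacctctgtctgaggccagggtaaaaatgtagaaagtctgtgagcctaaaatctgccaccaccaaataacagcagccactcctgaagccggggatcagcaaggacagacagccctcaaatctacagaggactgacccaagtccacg
widest gained region, chr16:90377391-90377690: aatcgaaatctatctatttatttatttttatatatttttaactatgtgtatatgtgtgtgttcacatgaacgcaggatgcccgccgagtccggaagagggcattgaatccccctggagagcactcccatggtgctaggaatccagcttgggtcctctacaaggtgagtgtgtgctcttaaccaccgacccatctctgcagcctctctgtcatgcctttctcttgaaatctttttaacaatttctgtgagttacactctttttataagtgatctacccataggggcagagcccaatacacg
Npsr1 intron, lost, chr9:24016781-24017080: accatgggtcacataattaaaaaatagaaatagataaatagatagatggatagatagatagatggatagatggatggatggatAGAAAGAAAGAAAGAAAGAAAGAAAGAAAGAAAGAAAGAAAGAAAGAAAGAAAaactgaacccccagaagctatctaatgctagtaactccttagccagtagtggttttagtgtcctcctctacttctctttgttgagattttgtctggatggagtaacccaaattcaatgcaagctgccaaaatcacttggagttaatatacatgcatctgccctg
Diap2 intron, lost, chrX:126666181-126666480: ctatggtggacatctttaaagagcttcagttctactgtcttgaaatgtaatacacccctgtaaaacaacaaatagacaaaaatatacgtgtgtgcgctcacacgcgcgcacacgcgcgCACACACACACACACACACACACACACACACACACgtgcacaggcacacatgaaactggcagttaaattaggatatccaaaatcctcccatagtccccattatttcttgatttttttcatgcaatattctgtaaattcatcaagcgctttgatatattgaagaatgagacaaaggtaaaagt
Ncoa7 intron, lost, chr10:30470931-30471230: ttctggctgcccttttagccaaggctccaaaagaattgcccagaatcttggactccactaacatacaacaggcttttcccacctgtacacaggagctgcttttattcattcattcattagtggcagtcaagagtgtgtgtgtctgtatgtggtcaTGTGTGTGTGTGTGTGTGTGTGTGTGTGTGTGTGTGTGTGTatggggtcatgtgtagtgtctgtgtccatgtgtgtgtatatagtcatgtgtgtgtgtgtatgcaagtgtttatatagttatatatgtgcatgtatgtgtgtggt
intergenic region of chromosome 10, lost, chr10:109975011-109975310: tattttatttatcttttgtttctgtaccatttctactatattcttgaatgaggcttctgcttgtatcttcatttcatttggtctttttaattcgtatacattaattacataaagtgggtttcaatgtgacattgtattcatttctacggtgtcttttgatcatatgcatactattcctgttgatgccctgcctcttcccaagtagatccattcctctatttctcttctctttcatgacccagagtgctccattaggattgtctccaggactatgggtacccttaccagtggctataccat
widest lost region, in Ftsjd2, chr17:29831461-29831760: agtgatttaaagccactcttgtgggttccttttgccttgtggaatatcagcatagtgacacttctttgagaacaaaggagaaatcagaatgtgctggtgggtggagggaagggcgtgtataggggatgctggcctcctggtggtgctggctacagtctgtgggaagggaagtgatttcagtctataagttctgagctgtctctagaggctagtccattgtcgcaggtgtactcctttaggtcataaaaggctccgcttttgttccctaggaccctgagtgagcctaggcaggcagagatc

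Among these 10 stretches, 6 hold such a run and 4 hold none. They were picked with their runs known from a larger set read under the same rule. Most of the stretches left out hold no run. The 6 of 10 is therefore no share of the members, of which 7.50% held a run in their central 300 bases. The longest run is 34 bases of CA in Rasgrf1, 48 bases of a CTTT unit in Med12l and 45 bases in the chromosome 4 gene desert, where a GTT run adjoins a CTT run. In the lost stretches it is 53 bases of a GAAA unit in Npsr1, 35 bases of CA in Diap2 and 41 bases of GT in Ncoa7. The stretches of Zmynd8, of Ftsjd2, of chromosome 16 and of the intergenic chromosome 10 region have no run of that length.

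Wide regions were nearly all gained. Of the 2760, 2635 had the higher mean in KCl and 125 in control, so that 95.5% were gained. Among all 50306 non-promoter regions 28788 were gained, a share of 57.2%, and over the whole list it was 57.3% gained and 42.7% lost. The 143 regions over 380 bp that name a promoter, which are no members, had a gained share of 95.8%. The direction had entered the choice of the list, and nothing is read from its share beyond these counts.

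The gained share differed with length among the wide regions. Of the 2572 regions of 400 to 480 bp, 2493 were gained and 79 lost, a gained share of 96.9%. Of the 110 regions of 500 to 580 bp, 81 were gained and 29 lost, which is 73.6%. The 78 regions of 600 to 800 bp comprised 61 gained and 17 lost regions, or 78.2% gained. Just under the threshold, at exactly 380 bp, 17509 regions were gained and 5745 lost, or 75.3% gained. Below that, at 200 to 360 bp, 8644 were gained and 15648 lost, or 35.6% gained. Lengths were thus spread differently in each direction. Regions of 400 to 480 bp made up 94.6% of the gained wide regions and 63.2% of the lost ones. The median length of the members was 420 bp, and the longest was 800 bp.

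**Figure D1:**
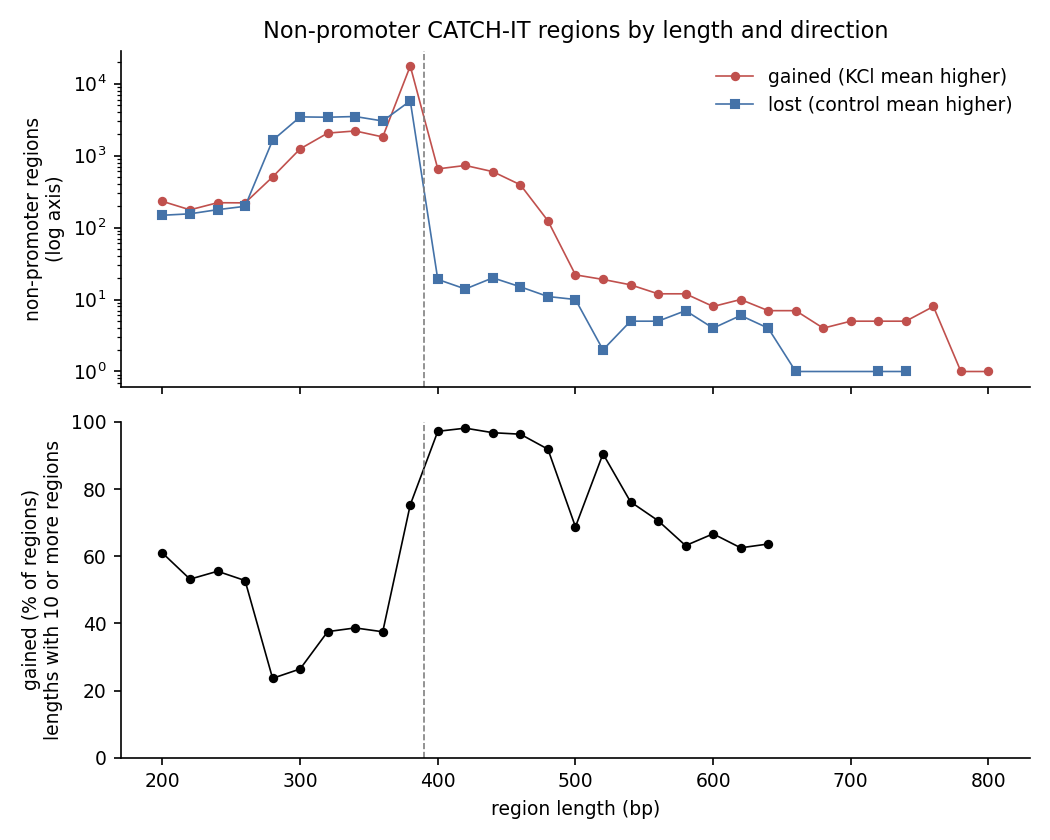
Number of gained (red circles) and lost (blue squares) non-promoter CATCH-IT regions at each length in bp, on a log axis (top), and the gained share in percent at lengths with 10 or more regions (bottom). The dashed line marks the threshold between 380 and 400 bp; from 400 to 480 bp nearly all regions were gained, and past 480 bp the gained share was lower.

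The number of regions dropped sharply at the threshold. At 380 bp there were 17509 gained regions with a median KCl mean of 7.13 normalised reads, and at 400 bp there were 652 with a median of 20.2. In the lost direction the number went from 5745 at 380 bp to 19 at 400 bp, with median control means of 6.40 and 13.1. The 2 regions of 380 bp with the smallest deposited p-values lay just outside the rule. One, in a gene desert at chr14:107718921-107719300, had 12.0, 16.51 and 16.3 normalised reads in KCl and 0.32, 0 and 0 in control. The other, intergenic at chr1:23331961-23332340, had 9.35, 10.1 and 5.44 in KCl and 0 in every control library. Just inside the rule, the 400-bp regions of Rasgrf1 and of chr4:95051361-95051760 had KCl values in the same range, given below.

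Every member had reads in all 3 libraries of its higher group, as did 99.9% of all gained and 100% of all lost non-promoter regions. In 2529 of the 2635 gained regions, or 96.0%, all 3 control libraries were at 0, and in 123 of the 125 lost regions, or 98.4%, all 3 KCl libraries were at 0. Across all non-promoter regions these shares were 96.4% for gained and 99.4% for lost. The groups did not overlap in 2748 of the 2760 members, 99.6%, against 99.2% of all non-promoter regions. All 53020 listed regions, 100% of the list, had the authors' adjusted p at or under 0.05, so that this call did not separate the members from the rest. The 12 members whose groups overlapped were all gained, and Syt3, Map3k5 and Panx1 are among the genes they lie in (these 3 were named after their values were seen). In Syt3, which encodes a synaptotagmin, the KCl values were 12.0, 1.60 and 43.5 and the control values 3.79, 0 and 1.18.

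The spread between the libraries of one group was wide. Each library's normalised counts were multiples of a single step, with 100% of values within 0.1 of a whole number of reads, and that step is the value of 1 read. It was 1.34, 0.533 and 2.72 in the first, the second and the third KCl value and 0.315, 1.39 and 1.18 in the control values. The order is that of the packed cells, which carry no library names. Gained members had a median KCl mean of 19.2 normalised reads, with a range from 5.54 to 229. The standard deviation over the 3 libraries was a median of 84.1% of the mean, and it exceeded the mean in 650 of the 2635. Lost members had a median control mean of 13.3 (range 11.5 to 23.5) and a median standard deviation of 74.95% of the mean.

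One library led most of the means. The third KCl value was the highest of the 3 in 1810 of the gained members, or 68.7%, and supplied a median of 56.5% of the summed normalised count. As reads, the lead was shared: the first library had the most reads in 1186 regions and the third in 1202. Among all gained non-promoter regions the third value was highest in 41.5%. In lost members the third control value was highest in 73 of 125 and the second in 52, and the first was highest in none.

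In most libraries, reads per region gathered at certain numbers, most often 12 in wide regions and 6 at 380 bp. In gained members the first KCl library had exactly 12 reads in 1065 of 2635 regions, or 40.4%, and the second had exactly 12 in 949, or 36.02%. In the first library 6, 18 and 24 reads were no peaks, at 0.607%, 3.99% and 0.683% of regions. Both had 12 reads in 814 regions, in which the third library had between 7 and 35. At 380 bp the most frequent number was 6, in 5954 of 17509 gained regions for the first library (34.0%) and 5377 for the second (30.7%), and both libraries were at exactly 12 in 139. The third KCl library had only a small peak at 12 reads in the wide regions, 4.86% against 2.85% at 11 and 1.90% at 13. Its most frequent number there was 7 reads, in 164. The name of the deposited table holds a duplicate setting of 6, and its part in these numbers was not tested.

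In lost members the third control library peaked at 24 reads, in 36 of 125 regions, with 30 more at 12. The first and second control libraries were most often at 12, in 33 and 29 regions. In 32 of the 36 regions with 24 reads in the third library, the second had under 12. Across the 2635 gained members the reads of the first and second KCl libraries ran against each other (Spearman rho -0.57), as did the first and the third (-0.35), while the second and the third ran together (0.45). Across the 125 lost members the second and the third control libraries had a rho of -0.63. These are descriptions across regions, which share libraries and passed the same filter on the group difference.

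**Figure D2:**
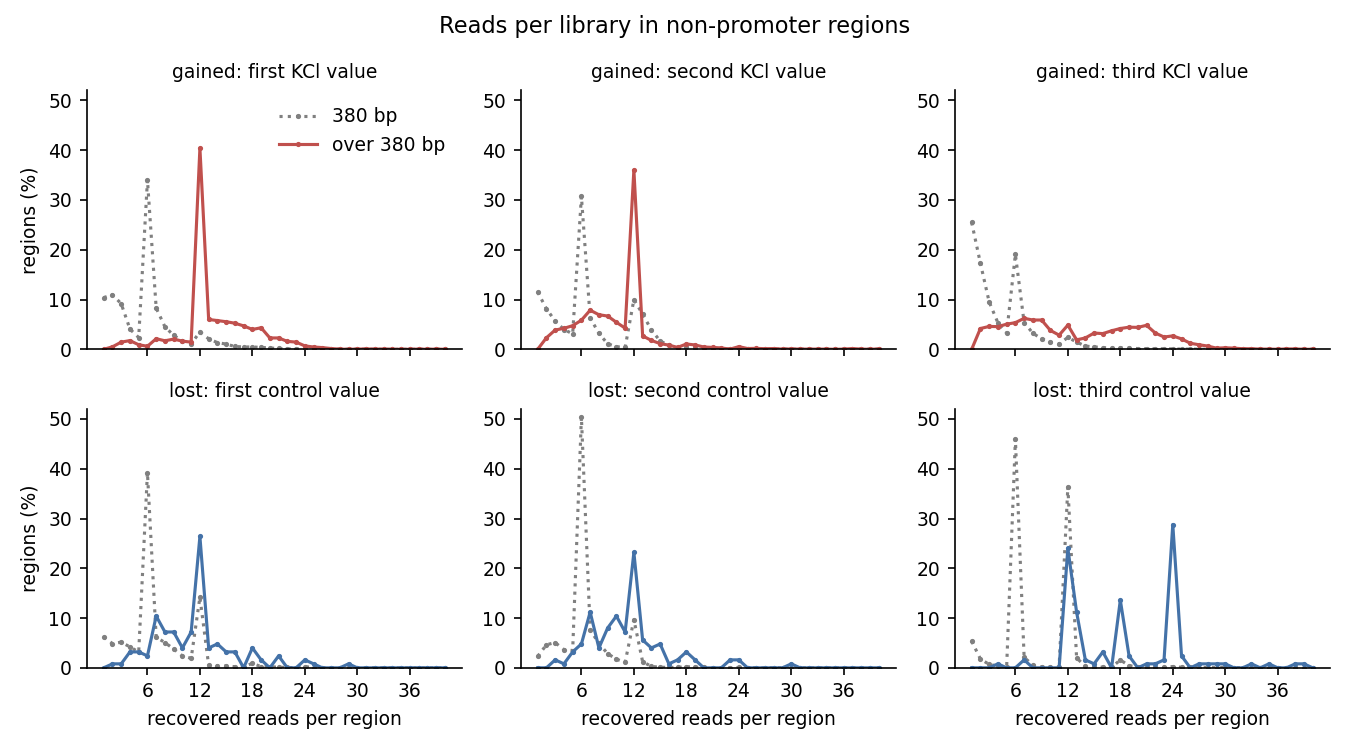
Share of regions, in percent, at each recovered number of reads (up to 40) in each of the 3 KCl values of gained regions (top) and each of the 3 control values of lost regions (bottom), for regions over 380 bp (solid) and of 380 bp (dotted grey). Wide regions peaked at 12 reads in the first and second KCl values and at 12, 18 and 24 in the third control value. In 380-bp regions 6 reads was most frequent, except in the third KCl value, where 1 read was most frequent and 6 a further peak.

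The region with the smallest deposited p-value lay in Rasgrf1, which encodes a calcium-responsive exchange factor for Ras in neurons. The region, chr9:89895261-89895660, was 400 bp long and in an intron 90848 bp from the start site named in the table. Its KCl values were 13.4, 19.7 and 16.3, and all 3 control values were 0. All KCl libraries were well above control, with a mean of 16.46 ± 3.17 (SD, n = 3). If a count of 0 is taken to allow up to 3 reads per library, the control mean is at most 2.88. The KCl mean was 5.71-fold that limit. The limit holds only for reads that fall independently, and reads gathered at certain numbers, as given above. The 5.71 is therefore no firm lower bound. The authors' deposited table gives it a p of 1.16e-13. The second library alone had 37 of its 53 KCl reads.

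The next regions by p were of similar size. In Med12l, which encodes a paralogue of a Mediator kinase-module subunit, a 720-bp intronic region at chr3:58886181-58886900 had 6.68, 10.7 and 8.15 in KCl. A 440-bp region in a gene desert, chr4:16945181-16945620, had 8.02, 13.3 and 8.15, and a 400-bp intergenic region, chr4:95051361-95051760, had 5.34, 10.1 and 8.15. All of these were at 0 in every control library, so that the groups were apart in each. Zbtb7c, a zinc-finger gene of the BTB class, had 6.68, 10.1 and 5.44 in a 440-bp intronic region, and the 420-bp region chr1:189708641-189709060 had 9.35, 10.7 and 10.9. Control was again at 0. The second KCl library, in which a read is worth least, held 19 to 37 reads in each of these 6 regions. Their KCl means, from 7.41 to 16.46, lay below the median of 19.2 over all gained members.

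The longest gained regions varied in level and in the spread between libraries. The 800-bp region chr16:90377021-90377820, intergenic, had 30.7, 3.20 and 24.5 in KCl. The 780-bp region chr4:141437761-141438540, also intergenic, had 24.1, 8.52 and 68.0, a mean of 33.5 ± 30.8 (SD, n = 3). In both, control was at 0 in all libraries, and the second KCl library was the lowest. Zmynd8, a reader of acetylated histones, held a 760-bp intronic region 4666 bp from its start site with 5.34, 12.2 and 8.15. Slc9a9, an endosomal sodium and proton exchanger, held a 760-bp intronic region with 10.7, 7.99 and 13.6. Of the 8 gained regions of 760 bp, the 4 with the smallest deposited p are given here. The other two of these 4 are an intergenic region at chr10:107451661-107452420 with 12.0, 4.26 and 32.6 and a gene desert region at chr2:7390681-7391440 with 17.4, 7.46 and 35.3.

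In the 6 lost regions with the smallest deposited p-values, 1 control library held most of the normalised count. In Npsr1, the receptor of neuropeptide S, a 580-bp intronic region had control values of 0.63, 41.6 and 4.73 and the smallest deposited p of the lost members, 3.04e-09 in the authors' deposited table. In Diap2, a formin that nucleates actin, a 400-bp region had 1.26, 6.93 and 46.1, and in Slc35b1, a nucleotide transporter of the endoplasmic reticulum, a 400-bp region had 2.21, 6.93 and 41.4. KCl was at 0 in every library of the 3 regions, but the highest control value was at least 5 times the next in each. Ncoa7, named as a nuclear receptor coactivator, had 2.21, 8.32 and 35.5 in 440 bp. An intergenic 720-bp region, chr10:109974681-109975400, had 2.21, 33.3 and 8.28, and a 500-bp gene desert region, chr6:75361201-75361700, had 2.21, 8.32 and 39.0. Which control library was high therefore differed from region to region.

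**Figure D3:**
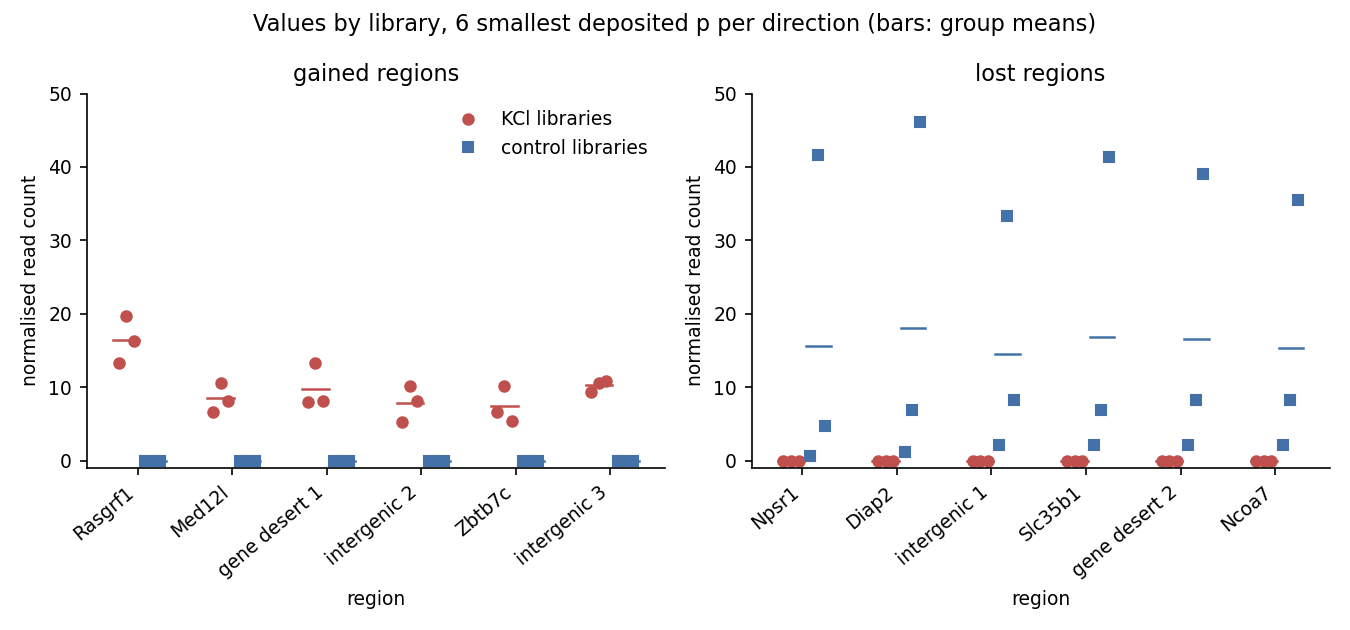
Normalised read counts by library in the 6 gained (left) and 6 lost (right) wide regions with the smallest deposited p, with KCl libraries as red circles, control libraries as blue squares and group means as bars. The KCl values of the gained regions lie within 5.34 to 19.7, while the control values of the lost regions run from 0.63 to 46.1 with 1 library far above the others.

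The longest lost region, 740 bp at chr17:29831461-29832200, lay in an intron of Ftsjd2, a methyltransferase of the mRNA cap. Its control values were 2.21, 20.8 and 15.4, a mean of 12.8 ± 9.56 (SD, n = 3), with KCl at 0. Intergenic regions of 640 to 660 bp on chromosomes 4, 5 and 9 had control means between 13.2 and 13.9. Of the lost members with the highest means, Ephb2, a receptor for ephrins, had 1.89, 33.3 and 22.5 over 420 bp and Tmco7 had 2.84, 13.9 and 44.9 over 400 bp. Sfi1, a centrin-binding protein of the centrosome, was one of the 2 lost members with reads in KCl. Its 540-bp region had 15.8, 26.3 and 28.4 in control and 8.02, 0 and 0 in KCl, and the control mean was 8.79-fold higher.

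Reads in all 6 libraries were found in 17 members, all gained. Their KCl means were 3.31 to 18.8 times the control means, with a median of 5.19. Of these 17, 5 lay in pericentromeres, 5 in gene deserts, 4 in other intergenic sequence and 3 in gene bodies. More than 50% of the 32-base words occurred more than once in the genome in 7 of the 17, against 2.46% of all members, so that the place of their reads is uncertain. The groups overlapped in 5 of the 17.

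Pericentromeres, which are rich in satellite repeats and packed as constitutive heterochromatin, gave the highest values. The region chr9:3029941-3030420 had 243, 113 and 329 in KCl and 42.6, 83.2 and 63.9 in control, a 3.62-fold higher mean. Its neighbour chr9:3029141-3029760, 180 bp away, had 127, 62.3 and 174 in KCl and 22.1, 41.6 and 46.1 in control. The region chr9:3019321-3019980 had 124, 63.4 and 177 in KCl and 14.5, 33.3 and 55.6 in control. In all 3 the groups were apart, and 85.9% to 88.0% of the 32-base words were repeated in the genome. The authors' ratio to input for chr9:3029941-3030420 was 3.74 in KCl and 0.93 in control. On chromosome 4, the 580-bp pericentromere region chr4:3016561-3017140 had 5.34, 9.59 and 43.5 in KCl and 0.63, 1.39 and 2.37 in control.

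The mitochondrial genome, which is not packed with histones, held 2 members. The region at positions 12501 to 12900 had 49.4, 29.8 and 101 normalised reads in KCl and 19.3, 8.32 and 7.10 in control, a 5.19-fold higher mean. The region at positions 5901 to 6300 had 62.8, 20.2 and 35.3 in KCl and 8.84, 9.70 and 8.28 in control, 4.41-fold higher. The groups were apart in both. The authors' ratios to input were 1.99 and 1.87 in KCl and 0.40 and 0.58 in control. Of the 32-base words, 54.5% at positions 5901 to 6300 and 27.4% at 12501 to 12900 occurred more than once in the genome. The place of the reads is therefore uncertain at 5901 to 6300 and in the repeated part of 12501 to 12900, where most words occurred once. These values are a difference between the KCl and control pull-downs in reads assigned to DNA that holds no histones, and what set it was not tested. Of all 11 non-promoter regions on the mitochondrial chromosome, 18.2% were wide.

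The 3 gene body regions with reads in every library lay in introns. In Bre, a component of a deubiquitinase complex, a 400-bp intronic region without repeated 32-base words had 16.0, 8.52 and 65.2 in KCl and 2.21, 1.39 and 1.18 in control, 18.8-fold higher. Ptprm, a receptor tyrosine phosphatase that mediates cell adhesion, had 16.0, 6.39 and 48.9 against 0.32, 1.39 and 2.37, and its mean was 17.5-fold higher. Flt1, a receptor of vascular endothelial growth factor, had 10.7, 14.9 and 48.9 against 0.63, 6.93 and 7.10 over 660 bp, 5.08-fold higher. The lowest KCl value exceeded the highest control value in these 3 genes. Gene deserts gave 9.35, 11.2 and 21.7 against 0.63, 4.16 and 2.37 at chr5:80929681-80930080. At the intergenic region chr4:5112521-5112920, where 90.2% of the 32-base words were repeated, 8.02, 11.2 and 46.2 in KCl overlapped with 1.58, 8.32 and 2.37 in control.

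By position, wide regions were spread like the other non-promoter regions. The authors' annotation put 1200 members, 43.5%, in gene bodies, 1059 in other intergenic sequence, 494 in gene deserts and 7 in pericentromeres. Of all non-promoter regions, 41.1% lay in gene bodies. The share was 43.4% for gained and 45.6% for lost members. All 7 pericentromeric members were gained. The gene body regions lay a median of 48127 bp from the start site, against 50686 bp for all non-promoter regions. In the GENCODE annotation of the same build, the centre of 1186 members lay in an intron and that of 44 in a coding exon, 1.59% against 1.47% of all non-promoter regions. No difference in position is drawn from these shares.

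Wide regions were scattered over all chromosomes. Autosomes held between 0.915 (chromosome 12) and 1.31 (chromosome 9) members per Mb, with a median of 1.08. The X chromosome had 75 members, or 0.450 per Mb, and its non-promoter regions of any length were likewise sparse, at 9.20 per Mb, while chromosome 1 had 20.1. The share of non-promoter regions that were wide was 4.89% on X, within the autosomal range of 4.73% to 6.50%. Members were far apart, with a median of 307560 bp to the nearest other member, and only 10 lay within 1000 bp of another. These 10 form 5 gained pairs, one of them in Pde7b, a cAMP phosphodiesterase, where the KCl means were 17.4 and 13.98 in regions 640 bp apart.

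The gene body members named 1055 genes, and 935 of these had a single wide region. Another 101 genes had 2, and 19 had 3 or 4. The most in one gene was 4, in Cntnap2, Fgf14, Gpc5, Myo16, Rbms3 and Thsd4. These are long genes: Cntnap2, an adhesion protein of the axon, spans 2241 kb in the table and had 39 non-promoter regions of any length, and Fgf14, an intracellular modulator of sodium channels, spans 699 kb with 16. Itpr1, the calcium release channel of the endoplasmic reticulum, was shorter at 338 kb and had 3 wide regions among its 7. Trio had 3 among 9. In 8 genes wide regions went in opposite directions, among them Rbms3 and Myo16 with 3 gained and 1 lost each, and Alk, a receptor tyrosine kinase, with 2 gained and 1 lost.

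Among genes of the activity response, 1 wide region was found, that of Rasgrf1 above. The list held 27 genes, 9 of which had any non-promoter region, 15 regions in all. Immediate-early transcription factors such as Fos, Egr1 and Npas4 had no wide region. Of all regions that name a gene body, 5.81% were wide, and this is the share against which the lists below are set. Of all members 95.5% were gained, and 96.0% of the gained had every control library at 0. Lists that were all gained with control at 0 are thus near the shares of all members. Short genes have few regions outside their promoters, so that the lists are not alike in length.

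Receptors for glutamate had 5 wide regions among 185 non-promoter regions, or 2.70%, all gained and all at 0 in the 3 control libraries. In Grik4, a kainate receptor subunit, one 400-bp region had 25.4, 4.79 and 24.5 in KCl and another of 440 bp had 28.1, 2.66 and 27.2. Grm8, a metabotropic receptor, had 20.0, 4.79 and 32.6. In each of these the second KCl library was the lowest. Receptors for GABA and glycine had 3 among 52 (5.77%), one each in Gabrb1, Gabrb2 and Glrb. The values were 18.7, 4.79 and 19.0 in Gabrb1 and 33.4, 4.79 and 29.9 in Gabrb2. In Glrb, the beta subunit of the glycine receptor, they were 16.0, 6.39 and 46.2, which is 12, 12 and 17 reads. The regions of Unc13c and Hdac4 had exactly the same 3 values.

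Proteins of the synapse outside the receptors gave 9 more, all gained. The postsynaptic list had 6 wide regions among 164 (3.66%), with KCl means from 6.98 to 25.6. Magi1 and Magi3, scaffolds placed in this list, had 5.34, 7.46 and 8.15 and 18.7, 7.99 and 10.9. Camk2g, a calcium and calmodulin-dependent kinase, had 2.67, 7.46 and 13.6. The presynaptic list had 3 among 133 (2.26%). Erc2, a protein of the active zone, held 2 of them, with 24.1, 12.8 and 19.0 and with 16.0, 6.39 and 40.8, and Unc13c, which primes vesicles, held the other. The control libraries were at 0 in all 9.

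Adhesion and axon guidance genes had the largest number, 44 wide regions in 29 genes among 649 regions, or 6.78%, of which 41 were gained and 3 lost. All 44 were intronic and at 0 in the lower group. Means in the higher group ran from 6.08 to 30.1, with a median of 18.3, near the 19.2 of all gained members. Cntnap2 had 4 of the 44, and Ntm and Opcml, which encode cell adhesion molecules of the immunoglobulin class, had 3 each. Dscaml1, of the same class, had 8.02, 8.52 and 13.6 in a gained region. Of the lost regions, 2 lay in Ephb2, above, and in Cntnap5b, with control values of 2.21, 18.02 and 28.4.

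Voltage-gated ion channels had 9 wide regions among 242 (3.72%), all gained, with KCl means from 10.2 to 34.8. Kcnq3, a subunit of the M-current channel, had 18.7, 3.73 and 8.15, and Kcnn3, grouped with these channels though it opens with calcium, had 16.0, 6.39 and 38.1. Cacna2d3, an auxiliary calcium channel subunit, had 20.0, 1.07 and 13.6, and its second value is 2 reads. Chromatin regulators had 6 among 97 (6.19%), all gained, of which 2 lay in Dnmt3a, a DNA methyltransferase. The 600-bp Dnmt3a region had 10.7, 9.05 and 16.3, the region of Tet3, which oxidises methylcytosine, had 21.4, 4.79 and 16.3, and that of Hdac4, a histone deacetylase that moves with calcium signals, had 16.0, 6.39 and 46.2. None of these lists was tested, and their shares lie on either side of 5.81%.

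Some genes that mark other cells or are not expected in cortical neurons had wide regions too. Gpc5, a glypican taken here as an astrocyte marker, had 4 and Flt1 had 2, out of 61 regions of the glial and vascular list (9.84%). That list held 23 genes, 16 of them with any non-promoter region, and only these 2 had a wide one. Gpc5 is long, at 1433 kb, and had 24 of the 61 regions. In Gpc5 one region had 6.68, 7.99 and 8.15 and another 24.1, 2.13 and 16.3. The second Flt1 region had 8.02, 7.46 and 5.44, with control at 0. Olfactory and vomeronasal receptor genes, which serve smell and pheromone sensing in the nose, had 4 of 40 (10.0%), all gained. Vmn2r117 had 30.7, 2.66 and 21.7, with 75.5% of its 32-base words repeated, and Vmn2r90 had 16.0, 10.1 and 57.1 against 1.89, 0 and 0. The pseudogene Olfr75-ps1 had 16.0, 5.86 and 59.8. The neuron marker list had none among 26 regions. Of the housekeeping genes, Tfrc, the transferrin receptor, had 1, with 16.0, 6.39 and 70.7, centred outside any GENCODE gene. KCl means ran from 6.97 to 24.8 in the glial and vascular list and from 18.4 to 29.95 in the receptors of the nose, within the range of all gained members. The part of other cells in the culture was not tested.

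In base composition, the wide regions had GC contents near those of the rest. The median GC content was 42.5% in gained and 43.5% in lost members, against 43.1% and 42.5% in all gained and lost non-promoter regions. More than 50% of the 32-base words were repeated in 68 members, 2.46%, against 4.46% of non-promoter regions. No repeated word at all was found in 60.5% of gained and 43.2% of lost members, against 61.4% of all gained and 65.8% of all lost non-promoter regions. Among lost regions of 380 bp the share was 61.6%. Because the rest of the list includes shorter stretches, motifs and tandem runs were counted in the central 300 bases of every region. The stretches shown above follow the authors' window instead, so that a run in them can lie outside these bases. The 53-base run of Npsr1 does so and was not counted. Among lost members over 480 bp, the longest run counted was 43 bases.

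Lost wide regions more often held tandem runs. A run of at least 24 bases was present in 21 of 125 lost members, or 16.8%, in 186 of 2635 gained members, or 7.06%, and in 6.73% of all non-promoter regions. Runs with a unit of 2 bases, such as the CA run of Diap2, made up 17 of the 21, 13.6% of lost members, against 4.63% of gained members and 4.08% of all lost non-promoter regions. Within lost members, the share was 20.3% in the 79 regions of 400 to 480 bp and 10.9% in the 46 longer ones. Lost regions of 380 bp had such runs in 7.68%. The count of tandem runs was chosen after the sequences above had been seen, and no test was made.

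Binding motifs of activity-linked factors were not frequent. The AP-1 site, TGACTCA or its reverse complement TGAGTCA, was found in 142 gained members (5.39%) and in 12 lost members (9.60%), against 5.28% of all non-promoter regions. The cAMP response element, TGACGTCA, was found in 7 gained and in no lost member, 0.254% of members against 0.191% of non-promoter regions. The EGR site, GCGTGGGCG or CGCCCACGC, was in no member and in 9 non-promoter regions. Both strands were searched, and the motifs do not overlap one another in sequence. The AP-1 share of gained members was thus that of the list, and a match describes letters only.

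**Figure D4:**
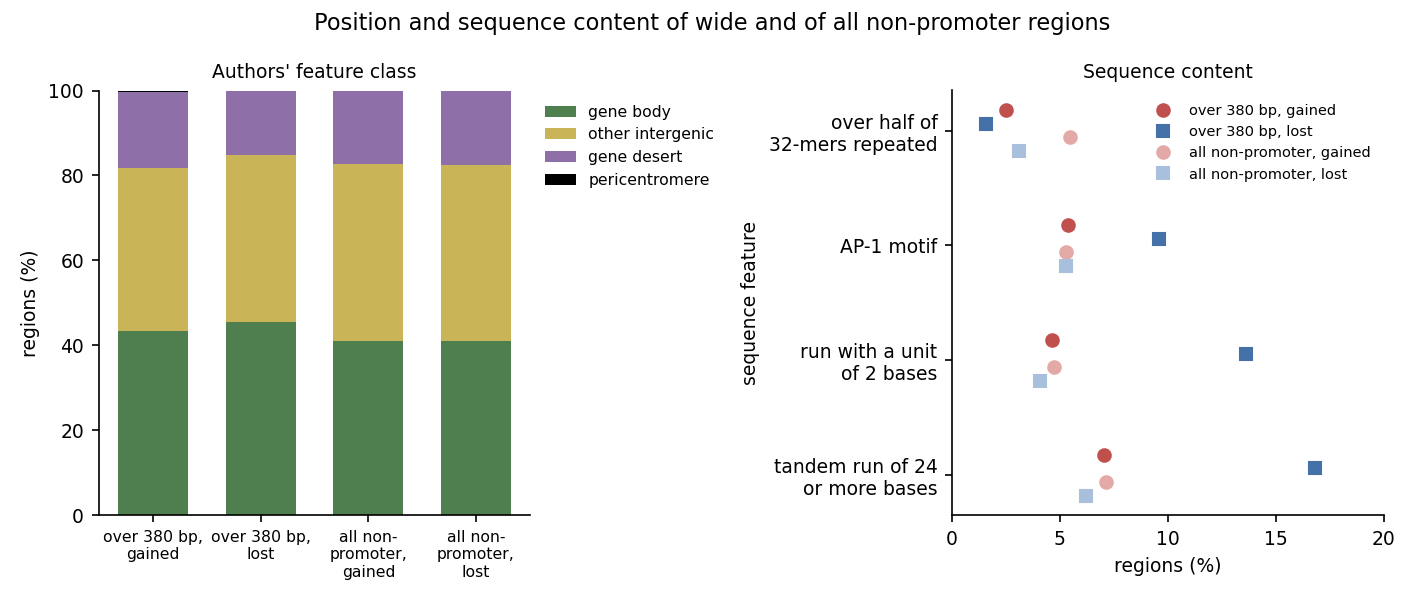
Share of regions, in percent, in each feature class of the authors' table (left) and with a tandem run, a tandem run with a unit of 2 bases, an AP-1 motif or more than 50% of the 32-base words repeated (right), for gained and lost regions over 380 bp and for all gained and lost non-promoter regions. The feature classes are alike, while lost wide regions had the highest share with tandem runs, 16.8% of 125 regions.

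Input had no reads in many wide regions, as in the rest of the list. The authors' ratio of the pull-down to input in the higher group was infinite, with input at 0, in 1801 of 2635 gained members (68.4%) and in 80 of 125 lost members (64.0%). Over all gained and all lost non-promoter regions the shares were higher, at 71.2% and 73.8%. Where it was finite, its median was 65.8 in gained members (range 1.87 to 1038) and 46.5 in lost members (range 0.66 to 388). Across all gained non-promoter regions the median was 24.2. Both groups had a finite ratio in 303 gained and 13 lost members, and the ratio was higher there in the group with the higher count. The ratio of the lower group was 0 in 281 of the 303 and in 12 of the 13, where this direction was fixed by a count of 0. In members with an infinite or missing ratio in either group, the direction relative to input could not be given.

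Overlaps with the regions that the authors listed for H3.3, the replacement variant of histone H3, were few, as for all non-promoter regions. The H3.3 lists are short and no count expected from placement was computed, so nothing is drawn from the low numbers. With 1 shared base as the minimum, 1 of the 2760 members overlapped one of the 667 H3.3 regions of neurons after 5 hr of KCl, 0.0362% of members and 0.150% of the H3.3 list. Among all non-promoter regions, 6 did, or 0.0119%. None overlapped an H3.3 region at 2 hr or 30 min, or one of the 7 regions of H3.1/2. The one overlap lay in Rnf19b, an E3 ubiquitin ligase, and covered 40 bp. The CATCH-IT region was gained, with 17.4, 6.39 and 89.7 in KCl and 0 in control. Its KCl mean, 37.8 ± 45.3 (SD, n = 3), was 13.1-fold the limit of 3 reads per control library. That is no firm lower bound either. The H3.3 region was lost, with 4.92, 6.14 and 5.95 in KCl and 16.53, 20.5 and 15.5 in control, and the authors' deposited table gives it an adjusted p of 0.0851.

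Among H3.3 regions of sorted hippocampal nuclei from C57bl/6 mice aged about 7 weeks, kept in enriched or normal housing, none of the 1642 of neurons (NeuN-positive) and 2 of the 1196 of other cells (NeuN-negative) met a wide region. The 740-bp region chr7:3471841-3472580, intergenic, was gained with KCl, at 26.7, 11.2 and 21.7 against 0, and the H3.3 region inside it was gained with enriched housing, at 10.5, 7.93 and 4.88 against 0.95, 2.03 and 0. The other was the mitochondrial region at 12501, inside an H3.3 region of 5540 bp that was lost, with a mean of 1920 ± 531 (SD, n = 3) against 5775 ± 1597 (SD, n = 3). These lists come from other cells, treatments and normalisations, and the levels are not compared across them.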

How the data were processed

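Regions and values are the authors'. The submitters' processing notes name the build mm9 and the tools bedtools 2.16.2 and Bowtie 0.12.7, and no source used here names the region caller. Per the file headers, each region had normalised read counts per library packed in one cell (names of libraries absent), their group means (a coverage signal), a ratio of each mean to input, a log2 fold change of KCl over control (infinite in 2652 members) and a p-value with its adjusted p-value, all deposited by the authors and used as they stood. The deposited list held changes of at least 3-fold, and its log2 values were used as they stood. The fold differences quoted in the text were computed here, as ratios of group means or against the limit of 3 reads. An alternative took a log2 ratio of the means with a pseudocount of 1.

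From these, whole reads were recovered from the step of each library, and sequences, GC content, repeated 32-base words, motifs and tandem runs were read from mm9 with pysam 0.24.0 in Python 3.11.15. Region centres were placed in GENCODE vM1. Depth per library is known only through the value of 1 read, and counting error and the small number of libraries limit precision. No test was run, since the list was chosen on these libraries. The recovery of reads, word copies, tandem runs, motifs and overlaps was tested on simulated data. The 12 gene lists and the members were chosen with earlier results of these data known. Named regions were, in each direction, the 6 longest, the 6 with the smallest deposited p, the 4 with the highest means, up to 6 with reads in all lower-group libraries, up to 3 per gene list, those that overlap an H3.3 region and the first 2 on either side of the length threshold, 65 members in all. Alternatives were other lengths, p-values, filters, scales and left-out libraries. Unused columns of per-sample values numbered 0.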

Additional observations from a re-analysis of the deposited data

How the results depend on the processing

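Of 137 values under 23 alternatives, 115 moved little and 22 moved more. A count moved little if it changed by no more than 1.5 times. A share moved little if it stayed within its 95% Wilson interval (94.6% to 96.2% for gained, 41.6% to 45.3% for gene bodies). The interval served only as a fixed margin. It counts regions as independent, which regions from the same 6 libraries are not, and so measures no sampling precision. Some of the 115 could not move. Every member passed the filters on p, on adjusted p and on libraries above 0, which left all 2760. The length threshold moved most. Over 360 bp there were 26014 regions (20144 gained, 5870 lost, 77.4% gained, 41.2% in gene bodies), 25837 with groups apart and 4 that overlapped an H3.3 region of 5 hr. Over 500 bp there were 156 (120 gained, 36 lost, 76.9% gained), 155 with groups apart and 0 that overlapped. With ratios to input, finite in both groups and at least 3-fold apart, 315 were left (302 gained, 13 lost), 311 with groups apart and 0 that overlapped H3.3; these are fewer because input at 0 gives no ratio. With promoters included, the share in gene bodies was 41.3%. The 1 overlap with H3.3 became 0 when 50% of the shorter region or an adjusted p of 0.05 was asked for, and 4 within 1000 bp. Leaving out each of the 6 values in turn gave 2752 to 2760 members, 2627 to 2635 gained and 125 lost, 95.46% to 95.47% gained, 43.46% to 43.57% in gene bodies, 2744 to 2758 with groups apart and 1 overlap. In 2652 members the lower group was at 0 in every library, so that leaving out a value could not remove them or turn their direction. The narrow ranges of these left-out values are therefore no sign of stability. Leaving out the pericentromeric and mitochondrial regions, or regions with mostly repeated words, both chosen after seeing the data, left 2751 and 2692 members with 95.5% and 95.4% gained. Recovered reads cannot turn a region whose lower group is at 0, so that the 50 of 65 named members higher in KCl in reads as in normalised counts show nothing further. No paired analysis was possible because the packed values carry no library names. The deposited list holds changes of at least 3-fold only, so smaller changes cannot be seen here. A gained member had a median of 37 reads over its 3 KCl libraries.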
